A study of Mus musculus with 18 samples.

Results

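Resting T cells keep a set of transcription factors that fall in activated and effector T cells. Described here are 7 of their genes, in regulatory T cells (TR) of the mouse: Tcf7, Lef1, Satb1, Bach2, Foxp1, Foxo1 and Foxo3. They were chosen by name for this role, with earlier results of these data known. All 7 were found among the 14011 genes of the authors' normalized table and the 37991 of their count table. The 18 libraries, each of 500 sorted CD4+ T cells, came from 3 littermate C57BL/6 mice (84, 86 and 87) that all carried 2 reporters, Id3-GFP and Foxp3-mRFP. From each mouse 3 populations were sorted out of spleen and the same 3 out of peripheral lymph node, which makes 6 groups of 3 libraries. The labels name them Id3+ cTR (central TR with the Id3 reporter, CD44 low), Id3+ eTR (effector TR with it, CD44 high) and Id3- eTR (effector TR without it, for which the label gives no CD44 gate). All groups share both reporters, mice without them are not analysed here, and the populations are not time points.

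TCF1 (the product of Tcf7) and LEF1 are related DNA-binding proteins that recruit beta-catenin or Groucho/TLE co-repressors and keep T cells in a long-lived, naive or memory-like state. SATB1 folds chromatin of T cell genes, and BACH2 is a repressor that competes with AP-1 proteins and holds back effector genes. FOXP1, FOXO1 and FOXO3 are forkhead factors of quiescence: FOXO proteins are pushed out of the nucleus when AKT is active, and in the nucleus they drive genes of survival and of recirculation through lymphoid organs.

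In Id3- eTR, 6 of the 7 genes were lower than in Id3+ cTR in spleen, and 5 in lymph node. Satb1 and Bach2 had the largest differences between Id3- eTR and Id3+ cTR, and Foxo3 had none that passed the test in any comparison. Tcf7 overlapped between both Id3+ populations and was lower in Id3- eTR, while Satb1 in lymph node had most of its difference between the 2 Id3+ populations. Levels are given in CPM, a library's counts brought to a common total and scaled by trimmed mean of M-values (TMM). Differences are log2 fold changes ± SE from edgeR's quasi-likelihood test with 3 libraries per group, and a gene is called at an adjusted p under 0.05 (Benjamini-Hochberg over the 12445 genes tested). The p-values weigh a difference against the spread between littermates within groups, pooled over all 6 groups and moderated across genes, without pairing by mouse. The step from Id3+ cTR to Id3+ eTR is called the first step, and that from Id3+ eTR to Id3- eTR the second.

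Library totals ran from 1600782 to 3153325 counts. In spleen, 2 Id3+ cTR libraries (mice 84 and 87) had the lowest depth and Id3+ eTR of mouse 84 stood apart from its group. The results were also fitted without these 3. That fit leaves only mouse 86 in spleen Id3+ cTR, so this group then has no spread of its own. Summed CPM of 8 T cell and TR markers ran from 3190 to 4480 over the 18 libraries, and Foxp3 from 237.5 to 374. Markers of other cells moved with the groups: 9 myeloid and dendritic markers summed to 137 to 264 CPM in spleen Id3+ cTR and 234 to 296 in Id3- eTR, and to 141 to 167 and 327 to 365 in lymph node (there with Csf1r and Itgax at 0 in both). The 7 CD8 T and NK cell markers summed to 79.5 to 174 CPM in spleen Id3+ cTR and 339 to 379 in Id3- eTR, and to 62.2 to 108 and 229 to 332 in lymph node. Of these, the NK receptor gene Ncr1 was at 0 in every group of both tissues. The 8 B cell markers summed to 815 to 963 CPM in spleen Id3+ cTR and 820 to 887 in Id3- eTR, and to 602 to 737 and 866 to 887 in lymph node. Of the 6 tested, Cd79a was called lower in spleen and Ighm higher in lymph node (0.41 ± 0.11, adjusted p = 0.0261). The spleen means of Cd79a were 29.4 ± 24.8 CPM (SD, n = 3) for Id3+ cTR and 3.56 ± 3.16 for Id3- eTR, and Pax5 and Ebf1 were at 0 in lymph node Id3- eTR. The 6 erythroid and platelet markers summed to 159 to 276 CPM in spleen Id3+ cTR, 18.4 to 102 in spleen Id3- eTR and at most 9.5 in lymph node. B cells also express Bach2, Foxp1 and Foxo1. The part of other cells in the differences of the 7 genes was not tested. In bulk libraries, fewer cells with a transcript and less of it per cell cannot be told apart.

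**Figure D1:**
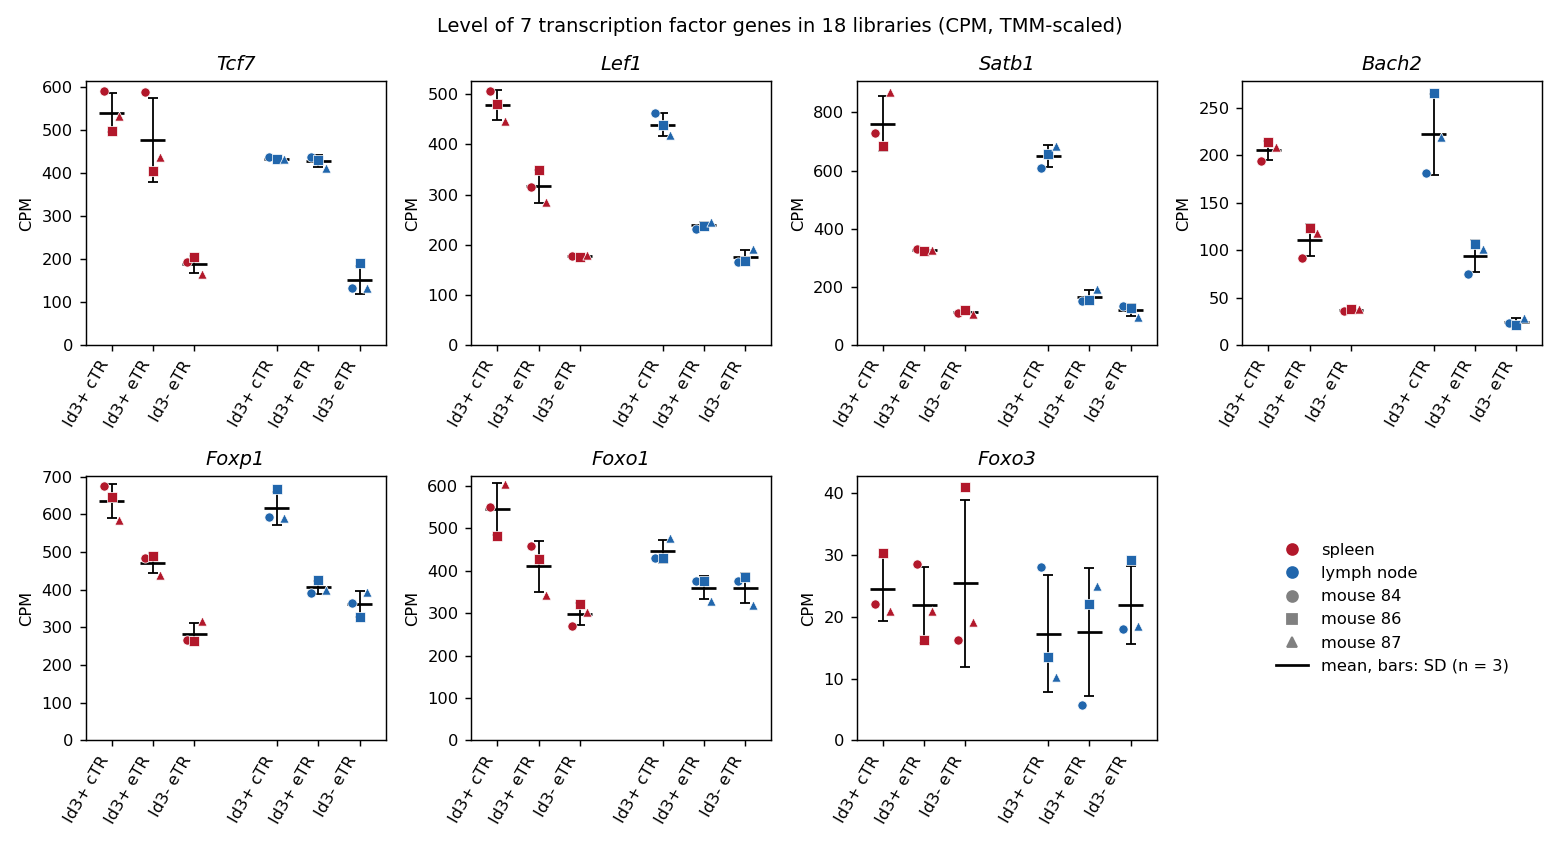
Level of each of the 7 genes (CPM, TMM-scaled, y axis from 0) in 3 populations of spleen (red) and lymph node (blue). Points are libraries with 1 shape per mouse, lines are means and bars are SD (n = 3). Tcf7 drops at Id3- eTR, Satb1 and Bach2 already at Id3+ eTR, and Foxo3 reaches at most 41.0 CPM with overlapping groups.

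Upstream sequences of the members are shown because these factors include the pair that binds the TCF/LEF motif, and 6 of the genes were called lower in Id3- eTR of spleen. RefSeq (GRCm38.p6) gave 17 windows of 250 bases upstream of transcript starts, at least 1 for each of the 7 genes. Some windows of Lef1 and of Satb1 share bases, so the 17 are not all separate stretches, and many overlap annotated exons. The TCF/LEF motif was searched as CTTTGA on both strands, and it stood in 3 of the 17 windows, against 13.8% of all 32851 windows of that length. The windows were 1 of Bach2, 1 of Lef1 and 1 of Foxp1, the last overlapping a Foxp1 exon. The motif GTAAACA of FOXO proteins and the motif TGAGTCA of AP-1 and BACH proteins were in 0 of the 17 windows, against 3.17% and 4.46% of all. E-boxes of E proteins, the partners of Id3, were searched as CACCTG and CAGCTG, and stood in 2 and 3 windows, against 17.2% and 13% of all. Printed are the Bach2 window (chr4:32417185-32417434, plus strand) and the Lef1 window with 2 matches (chr3:131156044-131156293, plus strand, at a start within the gene). Neither overlaps an annotated exon, and capitals mark CTTTGA or its reverse complement TCAAAG. A match is a description of letters and not a measured binding site.
Bach2: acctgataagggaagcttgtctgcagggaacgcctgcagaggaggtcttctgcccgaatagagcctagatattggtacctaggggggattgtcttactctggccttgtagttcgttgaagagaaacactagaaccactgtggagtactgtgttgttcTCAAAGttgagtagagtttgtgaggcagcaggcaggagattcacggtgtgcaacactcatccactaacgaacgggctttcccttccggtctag
Lef1: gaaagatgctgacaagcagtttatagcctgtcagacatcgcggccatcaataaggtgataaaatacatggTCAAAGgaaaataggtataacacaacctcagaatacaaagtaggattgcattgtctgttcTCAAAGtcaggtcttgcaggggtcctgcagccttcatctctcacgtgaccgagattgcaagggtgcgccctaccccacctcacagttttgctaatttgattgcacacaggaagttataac

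The 7 genes differed widely in abundance per length of transcript. In Id3+ cTR of spleen, per kilobase of the longest coding transcript, Tcf7 reached 219 ± 18.7 CPM (SD, 3 libraries), Lef1 at 137 ± 8.76 and Satb1 at 122 ± 15.3. Foxp1 followed at 88.5 ± 6.24, then Foxo1 at 62.9 ± 7.09, Bach2 at 23.1 ± 1.12 and Foxo3 at 3.57 ± 0.75. With all exons of a gene as its length, Tcf7 kept the highest level (206 ± 17.6 CPM per kilobase) and Bach2 and Foxo3 the lowest, and the order of the 4 between them was not kept. Counts are per gene, so the long and short isoforms known of Tcf7 and Lef1 are not separated here.

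Id3- eTR against Id3+ cTR spans both steps. In spleen 6 of the 7 genes were called lower and 0 higher, where 5.09% of all tested genes were called lower and 7.17% higher. In lymph node 5 were called lower and 0 higher, against 4.68% and 8.26% of all genes. The median log2 difference over the 7 genes was -1.43 in spleen and -1.33 in lymph node, and over all genes it was 0.00 in both. In the first step 4 genes were called lower in each tissue and 0 higher, against 1.39% lower and 2.93% higher in spleen and 1.46% and 4.2% in lymph node. In the second step 6 were called lower in spleen (1.75% of all genes; 1.53% higher) and 3 in lymph node (1.17%; 1.45% higher), with 0 called higher. The comparisons of a tissue share libraries. Since the 7 genes were chosen with earlier results of these data known, their counts are not an independent test against these shares.

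Tcf7 encodes TCF1. In spleen, mice 84, 86 and 87 had 589.8, 498 and 533 CPM of Tcf7 in Id3+ cTR, 588, 404 and 438 in Id3+ eTR, and 194, 204 and 166 in Id3- eTR. In lymph node they had 436, 431 and 432 CPM in Id3+ cTR, 438, 431 and 412 in Id3+ eTR, and 133, 190.0 and 132 in Id3- eTR. Both Id3+ populations overlapped in each tissue, and every Id3- eTR library lay below every Id3+ library. From Id3+ cTR to Id3- eTR the log2 level of Tcf7 fell by 1.52 ± 0.15 in spleen (2.87-fold, adjusted p = 2.74e-06) and by 1.52 ± 0.15 in lymph node (2.86-fold, adjusted p = 2.19e-06), in 3 of 3 mice in each. The first step of Tcf7 was -0.18 ± 0.14 in spleen (adjusted p = 0.534, 95% interval of the difference -0.48 to 0.12) and -0.02 ± 0.14 in lymph node (adjusted p = 0.978, -0.32 to 0.28). In the second step Tcf7 fell by 1.34 ± 0.15 in spleen (adjusted p = 4.31e-05) and by 1.49 ± 0.15 in lymph node (adjusted p = 1.59e-05). Ordered by mean, the 4 Id3+ groups (spleen Id3+ cTR at 540.3 CPM down to lymph node Id3+ eTR at 427) overlapped each with the next, as did the 2 Id3- eTR groups at 188 and 152.

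Lef1 encodes LEF1, the partner of TCF1 in T cells. In spleen its levels were 507, 481 and 446 CPM in Id3+ cTR of mice 84, 86 and 87, 315, 349 and 285 in Id3+ eTR, and 178, 176 and 179 in Id3- eTR. In lymph node they were 462, 439 and 418 CPM, then 232, 238 and 247, and then 166, 167 and 193. Unlike Tcf7, Lef1 stood in 3 separate bands in each tissue, with no overlap between populations. In log2 units Lef1 fell in the first step by 0.60 ± 0.09 in spleen (adjusted p = 0.000928) and by 0.88 ± 0.09 in lymph node (adjusted p = 9.11e-06). In the second step it fell by 0.83 ± 0.09 in spleen (adjusted p = 3.65e-05) and by 0.45 ± 0.09 in lymph node (adjusted p = 0.00991), which makes 1.43 ± 0.09 (2.69-fold, adjusted p = 1.52e-08) and 1.33 ± 0.09 (2.51-fold, adjusted p = 3.75e-08) over both steps, in 3 of 3 mice each. The spleen call of the first step missed the threshold with only the compared groups in the fit (adjusted p = 0.0549). Without the 3 libraries that stand apart, which leaves only mouse 86 in Id3+ cTR, that step was -0.60. The lymph node call of the second step missed it without Id3- eTR of mouse 84 (0.0598) or 86 (0.0588), or Id3+ eTR of mouse 87 (0.0512).

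The mean ratio of Tcf7 to Lef1 was highest in Id3+ eTR in both tissues. The ratio of Tcf7 to Lef1 CPM, which is not per length, was 0.944, 0.983 and 1.03 in lymph node Id3+ cTR, 1.89, 1.81 and 1.67 in Id3+ eTR, and 0.801, 1.14 and 0.685 in Id3- eTR. In spleen it was 1.16, 1.03 and 1.19, then 1.87, 1.16 and 1.54, then 1.09, 1.16 and 0.924. In lymph node the Id3+ eTR libraries stood above all others of that tissue. In spleen that of mouse 86 lay within the range of Id3+ cTR. The ratio is a description, with no test of its own.

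Satb1 encodes a chromatin organiser of T cells. Spleen libraries of mice 84, 86 and 87 held 730.2, 686 and 869 CPM of Satb1 in Id3+ cTR, 331, 325 and 328 in Id3+ eTR, and 109.7, 120.1 and 109 in Id3- eTR. Lymph node libraries held 611, 657 and 685 CPM in Id3+ cTR, 150.5, 157 and 195 in Id3+ eTR, and 134, 129.7 and 97.3 in Id3- eTR. The 3 populations did not overlap in either tissue, but the lymph node Id3+ eTR libraries came close to those of Id3- eTR. Over both steps the log2 level of Satb1 fell by 2.76 ± 0.13 in spleen (6.75-fold, adjusted p = 9.06e-10, the third smallest p of all genes tested) and by 2.43 ± 0.13 in lymph node (5.40-fold, adjusted p = 1.9e-09). In spleen the first step fell by 1.22 ± 0.12 (adjusted p = 2.67e-05) and the second by 1.54 ± 0.13 (adjusted p = 1.88e-06). In lymph node the first step fell by 1.96 ± 0.13 (adjusted p = 5.66e-08), and the second step of -0.48 ± 0.13 was not called (adjusted p = 0.0546, 95% interval -0.75 to -0.21). DESeq2 called it (adjusted p = 0.014).

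Bach2 encodes a repressor of the AP-1 motif class. In spleen it stood at 194, 214 and 208 CPM in Id3+ cTR, 91.8, 123 and 118 in Id3+ eTR, and 36.0, 38.1 and 37.9 in Id3- eTR. In lymph node it stood at 181, 266 and 219 CPM, then 75.0, 106 and 101, and then 24.0, 21.6 and 28.9. No population overlapped with another within a tissue. In lymph node Bach2 fell by 3.16 ± 0.18 over both steps (8.94-fold, adjusted p = 6.79e-09), by 1.23 ± 0.17 in the first (adjusted p = 0.000183) and by 1.93 ± 0.18 in the second (adjusted p = 9.59e-06). In spleen it fell by 2.46 ± 0.18 (5.51-fold, adjusted p = 9.12e-08), by 0.89 ± 0.17 (adjusted p = 0.00499) and by 1.57 ± 0.18 (adjusted p = 5.6e-05) in the same order. Each difference went the same way in 3 of 3 mice. Without the 3 libraries that stand apart, which leaves only mouse 86 in spleen Id3+ cTR, the first step in spleen was -0.82. An antisense gene, Bach2os, shares exon bases with Bach2 and had 217 counts over all libraries against 5169 of Bach2. The sources used here do not give whether counting used the strand.

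Foxp1 encodes a forkhead repressor that keeps naive T cells quiescent. Its levels in spleen were 674, 645 and 586 CPM in Id3+ cTR, 484, 489 and 440.3 in Id3+ eTR, and 268, 264 and 317 in Id3- eTR. In lymph node they were 594, 666 and 589 CPM, then 393, 426 and 400.2, and then 365, 327 and 395. Spleen showed 3 separate bands, while the 2 effector populations of lymph node overlapped. In log2 units Foxp1 fell over both steps by 1.17 ± 0.10 in spleen (2.24-fold, adjusted p = 4e-07) and by 0.77 ± 0.09 in lymph node (1.70-fold, adjusted p = 2.6e-05). In spleen the first step fell by 0.43 ± 0.09 (adjusted p = 0.014) and the second by 0.73 ± 0.10 (adjusted p = 0.00022). In lymph node the first step fell by 0.60 ± 0.09 (adjusted p = 0.000695), and the second was -0.17 ± 0.09 (adjusted p = 0.503, 95% interval -0.36 to 0.04). The first step in spleen lost its call without Id3+ cTR of mouse 84 (adjusted p = 0.0692), without Id3+ eTR of mouse 87 (0.0594) and with only the compared groups (0.123). Without the 3 libraries that stand apart, which leaves only mouse 86 in Id3+ cTR, it was -0.47. A read-through gene, Gm20696, shares Foxp1 exons and had 2738 counts over all libraries against 20855 of Foxp1, so reads of the shared exons are uncertain.

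Foxo1 encodes the main FOXO protein of T cells. Spleen levels were 549, 481 and 604 CPM in Id3+ cTR, 459, 428 and 344 in Id3+ eTR, and 269.8, 321 and 302 in Id3- eTR. In lymph node they were 429, 431 and 477 CPM, then 377, 376 and 328, and then 377, 385 and 320.1. The spleen populations did not overlap, and in lymph node the effector populations overlapped with each other, below all Id3+ cTR libraries. Foxo1 fell by 0.87 ± 0.12 over both steps in spleen (1.83-fold, adjusted p = 8.57e-05), and the lymph node difference of -0.31 ± 0.12 was not called (adjusted p = 0.103, 95% interval -0.55 to -0.06). In spleen the first step was -0.41 ± 0.12 (adjusted p = 0.0599), and in the second Foxo1 fell by 0.46 ± 0.12 (adjusted p = 0.0389). Both stood near the threshold. The second was lost with mouse as a replicate block (adjusted p = 0.0594), with only the compared groups (0.215), on the authors' normalized table (0.0645), without the 3 libraries that stand apart (0.137), and without any of 5 spleen libraries (Id3- eTR of mouse 84, 0.156; 86, 0.056; 87, 0.109; Id3+ eTR of mouse 84, 0.152; 86, 0.0977). The first was called by DESeq2 (0.0192) and without Id3+ cTR of mouse 86 (0.0439) or Id3+ eTR of mouse 84 (0.0479). In lymph node the second step of Foxo1 was 0.00 ± 0.12 (95% interval -0.25 to 0.25).

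Foxo3, the other FOXO gene of T cells, was scarce. It had 12 to 87 counts per library, and its levels ran from 5.73 CPM (lymph node Id3+ eTR of mouse 84) to 41.0 (spleen Id3- eTR of mouse 86). Medians of the 6 groups lay between 13.6 and 22.1 CPM, and each group overlapped with the next in order of the mean. From Id3+ cTR to Id3- eTR the differences were 0.04 ± 0.50 in spleen (95% interval -1.01 to 1.09) and 0.35 ± 0.50 in lymph node (-0.70 to 1.40). In each tissue the interval holds a fall of the size given for Foxo1 there. It leaves out falls of the size given for Tcf7, Lef1, Satb1, Bach2 and Foxp1. In spleen the difference was -0.48 without Id3- eTR of mouse 86, and no interval was given for that fit. What the spleen interval leaves out is therefore uncertain.

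**Figure D2:**
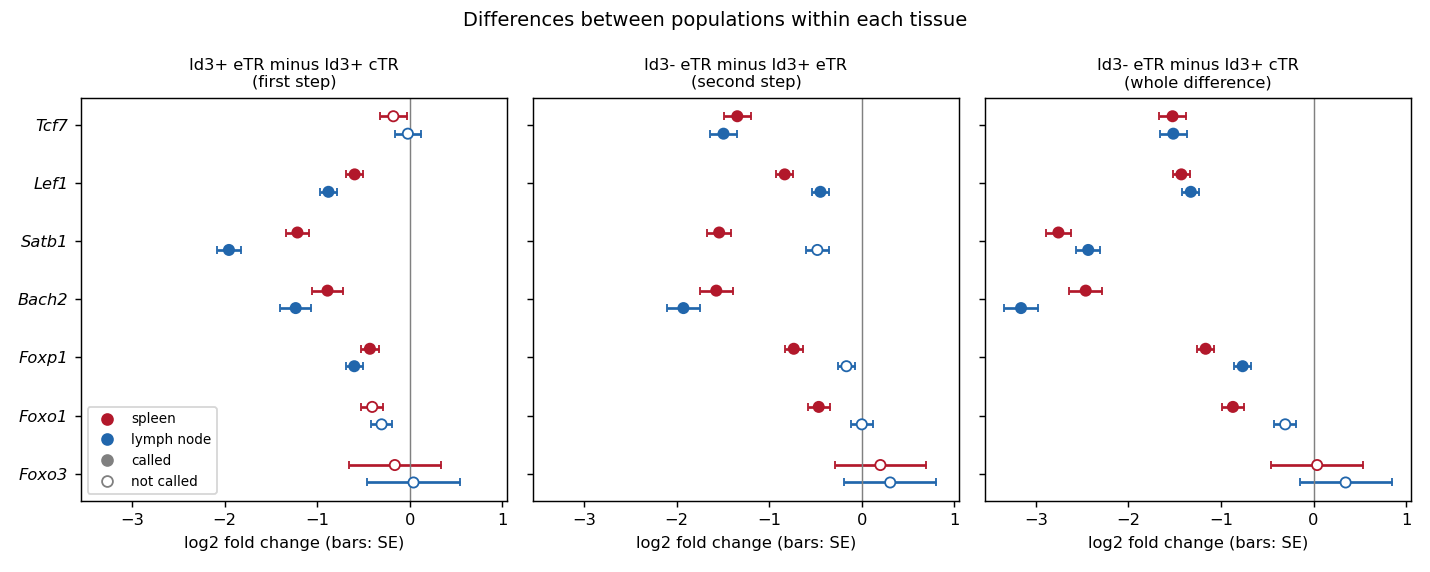
Log2 fold change of each gene (x axis, bars SE) in the first step, the second step and over both, in spleen (red) and lymph node (blue). Filled points are called at an adjusted p under 0.05 and open points are not. No filled point lies right of 0, and Tcf7 is open in the first step and filled in the second in both tissues.

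The share of the whole log2 difference already present in Id3+ eTR differed between genes. Computed within each mouse, it was 13.6% ± 12 (SD, n = 3) in spleen and 1.3% ± 2.5 in lymph node for Tcf7. For Bach2 it was 36.7% ± 6.9 in spleen and 39.7% ± 3.7 in lymph node, with overlapping mice. Lef1 had 42.2% ± 9.2 in spleen and 66.3% ± 2.5 in lymph node. Satb1 had 43.9% ± 2.7 and 81.7% ± 15.1, and Foxp1 had 37.9% ± 7.9 and 81.6% ± 17.3. Foxo1 had 45.1% ± 31.3 and 104.3% ± 13.9, of a whole difference that was not called in lymph node, and for Foxo3, with no called difference, no share is given. For Lef1, Satb1, Foxp1 and Foxo1 the lymph node mice all stood above the spleen mice (lowest lymph node values 63.4%, 64.5%, 62.9% and 93.7%, highest spleen values 49.3%, 46.9%, 46.6% and 81.2%). How often this occurs over all genes was not computed. For these genes edgeR did not call a difference of either step between tissues (adjusted p of at least 0.279 for the first and 0.0558 for the second). The Foxo1 shares of lymph node divide by small differences, -0.162 in mouse 86.

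The test of the second step against the first, chosen after these values were seen, asks whether the steps of a gene differ. Of the 7 genes it called Tcf7 and Satb1 in lymph node and Tcf7 in spleen. For Tcf7 the second step was lower than the first by 1.47 ± 0.24 on the log2 scale in lymph node (-1.47, adjusted p = 0.00367) and by 1.17 ± 0.24 in spleen (-1.17, adjusted p = 0.0386), where 1.41% and 0.538% of all genes were called in that direction. For Satb1 in lymph node the first step was the larger (difference 1.48 ± 0.22, adjusted p = 0.00157), a direction in which 0.354% of all genes were called. The lymph node calls held in each of the 17 alternatives run. The spleen call of Tcf7 held in 7 of 17: it was -0.80 (adjusted p = 0.252) without Id3+ eTR of mouse 84, whose Tcf7 was the highest of its group, and 0.0511 with the replicate block. It was also lost in spleen without any of the 3 Id3+ cTR libraries (mouse 84, 0.0503; 86, 0.0729; 87, 0.0965), or leaving out the Id3- eTR library of mouse 84 (0.0597) or 87 (0.0872).

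**Figure D3:**
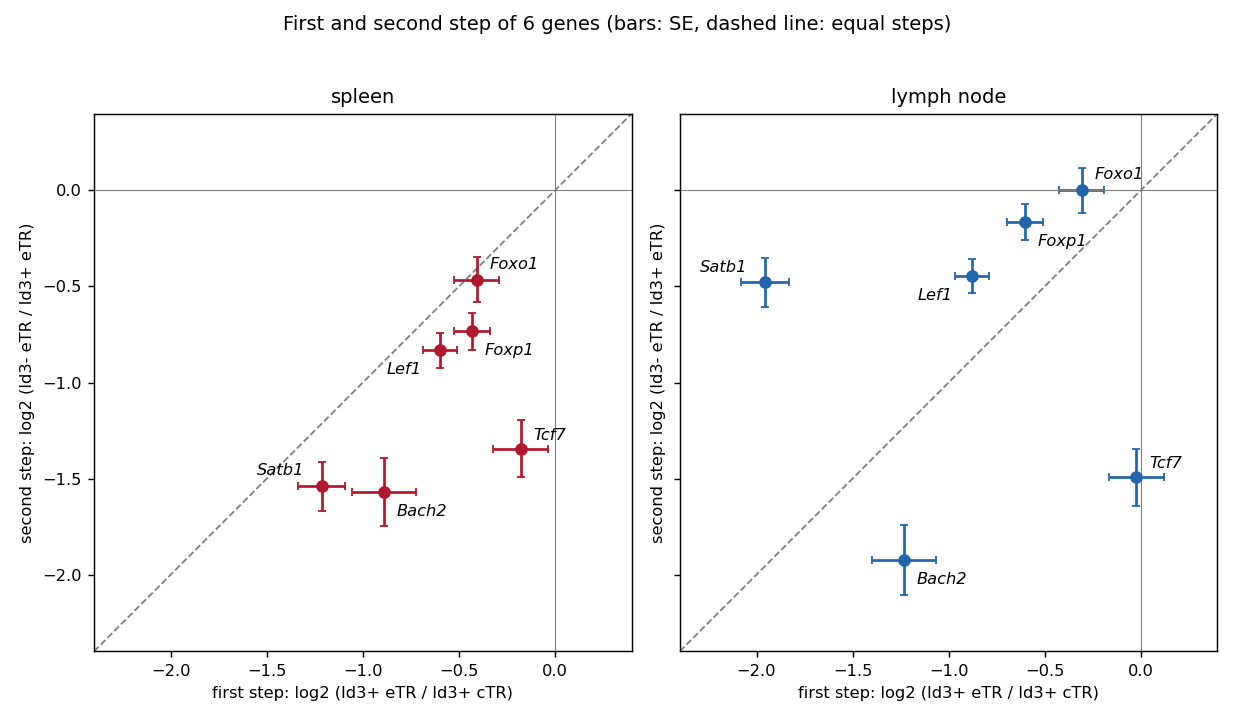
The first step (x axis) against the second (y axis) for 6 genes in spleen (left) and lymph node (right), as log2 fold changes with SE bars. The dashed line marks equal steps. Tcf7 lies near 0 on the x axis in both tissues, and Satb1 moves from -1.22 and -1.54 in spleen to -1.96 and -0.48 in lymph node.

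Tissues were compared within each population. In Id3+ eTR, Satb1 was lower in lymph node than in spleen by 0.97 ± 0.12 on the log2 scale (-0.97, 1.95-fold, adjusted p = 0.00169, 3 of 3 mice), the fourth smallest p of all genes, where 0.177% of genes were called lower. The 3 spleen libraries held 325 to 331 CPM and those of lymph node 150.5 to 195. The call was lost when only these 2 groups were fitted (adjusted p = 0.0902). Lef1 in Id3+ eTR differed by -0.41 ± 0.09 (adjusted p = 0.0652), and was called without spleen Id3+ eTR of mouse 87 (0.0348) and by DESeq2 (0.00531). Within Id3- eTR, edgeR called 0 of the 7 genes (3 at an unadjusted p under 0.05, 1 by DESeq2, 0.305% of all genes called), and within Id3+ cTR 0 (2 unadjusted, 0 by DESeq2, 0.00804% of all genes). Both shares are those of edgeR. DESeq2 called 195 of 13143 genes within Id3+ eTR, 145 of 12741 within Id3- eTR and 71 of 10327 within Id3+ cTR.

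The difference of a step between tissues was tested as an interaction. For the whole difference edgeR called 0 members (3 at an unadjusted p under 0.05, 0 by DESeq2, 0.0241% of all genes called). For the first step it called 0 (2 unadjusted, 1 by DESeq2, 0% of all genes) and for the second 0 (4 unadjusted, 2 by DESeq2, 0% of all genes). These shares of all genes are those of edgeR. DESeq2 called 49 of 12741 genes for the whole difference, 66 of 1042 for the first step and 37 of 11940 for the second. The second step of Satb1 was smaller in lymph node by 1.06 ± 0.18 on the log2 scale, in 3 of 3 mice (adjusted p = 0.0558). That value passed the threshold on the authors' normalized table (0.0339), with no filter on low counts (0.02), by DESeq2 (6.1e-05) and without lymph node Id3- eTR of mouse 87 (0.0187). For the first step of Satb1 the interaction was -0.74 ± 0.17 (adjusted p = 0.279). By DESeq2 its adjusted p was 0.00599, adjusted over only those 1042 genes. For the second step of Foxp1 it was 0.57 ± 0.13 (adjusted p = 0.261, DESeq2 0.0187).

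Relatives of the 7 genes were scarce or, Tcf7l1 apart, not called. Foxo6 had 0 counts in all 18 libraries, and Foxp2 had at most 3 counts in a group. Tcf7l2 had at most 15 counts in a group and was not tested. Group means of Bach1 lay between 14.6 and 19.6 CPM, those of Foxo4 between 5.46 and 11.2 and those of Foxp4 between 10.3 and 21.1, and none was called in the 6 population comparisons. Foxo4 and Foxp4 had adjusted p-values of 0.974 and 0.551 over both steps in spleen. In spleen Tcf7l1 had 29 counts over the Id3+ cTR group (5.25 ± 0.887 CPM, SD, n = 3) and 1 count over Id3- eTR. It was called lower (adjusted p = 0.0398), a ratio of 39.8 with a 95% interval of 6.61 to 1630 that covers counting error only.

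The lists of related genes are set against the shares of all tested genes called over both steps, 7.17% higher and 5.09% lower in spleen and 8.26% and 4.68% in lymph node. Of 16 tested genes of the TCF/LEF family and the Wnt pathway other than the members, 0 were higher and 1 (Tcf7l1) lower in spleen, and 1 was higher and 0 lower in lymph node, near those shares. The median log2 difference was 0.02 in spleen and -0.04 in lymph node. The gene called in lymph node was Axin2, a feedback inhibitor and widely used target of the Wnt pathway. Its level rose from 3.11 ± 2.30 CPM in Id3+ cTR through 8.43 ± 2.12 to 21.6 ± 6.28 in Id3- eTR (2.79 ± 0.56 on the log2 scale over both steps, adjusted p = 0.00253). In spleen it stood at 7.80 ± 2.89, 9.60 ± 3.69 and 19.97 ± 5.69 CPM (adjusted p = 0.114). Axin2 thus differed in the direction opposite to Tcf7 and Lef1. Tle3, a Groucho co-repressor, was called higher in the first step of lymph node (1.28 ± 0.36, adjusted p = 0.0446).

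Some genes known as FOXO targets were lower in effector TR than in Id3+ cTR. Of 18 tested, 8 were called lower and 0 higher over both steps in spleen, and 6 lower and 2 higher in lymph node, where Foxo1 itself was not called. Over all genes 5.09% and 4.68% were called lower in the same comparisons, and 7.17% and 8.26% higher, so that the 2 higher calls are near the share of all genes. Their median log2 difference was -0.52 in spleen and -0.18 in lymph node. Klf2, a factor of quiescence and migration, stood at 376 ± 12.8, 254 ± 17.5 and 182 ± 47.5 CPM in Id3+ cTR, Id3+ eTR and Id3- eTR of spleen, and at 307 ± 32.4, 144 ± 20.6 and 135.5 ± 8.31 in lymph node. In lymph node Klf2 thus changed in the first step (-1.09 ± 0.15, adjusted p = 0.000281) while the second was -0.09 ± 0.15 (adjusted p = 0.901). S1pr1, the receptor for exit from lymphoid organs, had a like order there, at 630.3 ± 28.9, 254 ± 29.3 and 257.5 ± 13.9 CPM (first step -1.31 ± 0.13, adjusted p = 6.16e-06; second 0.02 ± 0.13). Ccr7, the homing receptor for lymphoid organs, stood at 588 ± 38.7, 444 ± 33.2 and 133 ± 27.5 CPM in lymph node, with a second step of -1.74 ± 0.16 (adjusted p = 5.44e-06) and a first of -0.40 ± 0.15 (adjusted p = 0.153). Tested against each other, the lymph node steps differed for S1pr1 (second minus first 1.33 ± 0.23, adjusted p = 0.0044) and for Ccr7 (-1.34 ± 0.26, adjusted p = 0.0105), and the difference was not called for Klf2 (adjusted p = 0.0789). The 2 genes called higher in lymph node, named after their values were seen, were Il7r and Cited2.

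Between tissues within Id3+ eTR, lymph node against spleen, 2 of 18 FOXO targets, 2 of 12 quiescence regulators (Klf2 is in both lists) and 1 of 22 PI3K-AKT genes were called lower. Of 15 other lymphoid factors 1 was called higher, where 0.177% of all genes were called lower and 0.112% higher. These calls are less firm than those between populations: with only these 2 groups in the fit 0 of all genes were called, against 36. Without the 3 libraries that stand apart 9 were called, and leaving out single libraries gave 5 (without lymph node Id3+ eTR of mouse 84) to 46 (without spleen Id3+ eTR of mouse 87). Klf2 differed by -0.82 ± 0.15 (adjusted p = 0.0397) and S1pr1 by -0.73 ± 0.13 (adjusted p = 0.0261). Klf3, a relative of Klf2, differed by -0.90 ± 0.15 (adjusted p = 0.0183). Pik3r5, a regulatory subunit of PI3K gamma, differed by -1.67 ± 0.33 (adjusted p = 0.0464). Tox, a factor of chronically stimulated T cells, was higher in lymph node by 0.61 ± 0.10 (adjusted p = 0.0217).

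The PI3K-AKT pathway, which acts on FOXO proteins from upstream, had calls in both directions. Of 22 tested genes 2 were called higher and 3 lower over both steps in spleen, and 1 higher and 3 lower in lymph node, with medians of 0.07 and -0.01. Over all genes 7.17% were called higher and 5.09% lower in spleen, and 8.26% and 4.68% in lymph node, which is not far from these counts. Sgk3, a kinase related to AKT, fell by 2.60 ± 0.39 in spleen (adjusted p = 0.000236) and by 2.18 ± 0.38 in lymph node (adjusted p = 0.000672). Sgk1, its relative, rose by 0.89 ± 0.26 (adjusted p = 0.0355) and by 0.97 ± 0.26 (adjusted p = 0.0193). Pik3cd, the catalytic subunit of PI3K delta, fell by 0.71 ± 0.18 (adjusted p = 0.0165) and by 0.77 ± 0.18 (adjusted p = 0.00942). The other called genes were Pik3cg (higher) and Pik3r1 (lower) in spleen and Pik3r5 (lower) in lymph node. Pik3cg and Pik3r1 were named after their values were seen.

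Over both steps, the tested effector genes known to be repressed by BACH2 all moved opposite to Bach2. The list was chosen with earlier results of these data known. It holds effector genes, compared here between effector and central TR, so its counts are no independent test of BACH2. Of 8 tested, 8 were called higher and 0 lower over both steps in each tissue, and 5 higher in each single step of each tissue. With genes of 0 to 3 counts in a group at their bound or ratio, the median log2 difference over both steps was 4.99 in spleen and 5.50 in lymph node (6.40 and 5.83 as fitted). Klrg1, a receptor of terminally differentiated lymphocytes, with 9 counts in spleen Id3+ cTR, stood at 1.90 ± 1.66, 29.1 ± 12.02 and 388 ± 30.9 CPM in spleen. In lymph node its ratio of Id3- eTR to Id3+ cTR, where the latter had 2 counts, was 878 (95% interval 243 to 7260, counting error only). Il1rl1, the receptor of interleukin-33, stood at 3.34 ± 1.76, 26.5 ± 2.97 and 117 ± 18.3 CPM in spleen and at 7.10 ± 3.13, 21.0 ± 8.27 and 198 ± 37.5 in lymph node. The cytokine gene Il10, whose product dampens inflammation, was at 0.856 ± 0.997, 8.84 ± 11.02 and 179 ± 14.7 CPM in spleen. Ccr4, a chemokine receptor, went from 2.26 ± 2.97 through 35.1 ± 6.05 to 133.5 ± 28.7 CPM in lymph node. Prdm1, which encodes the effector factor BLIMP1 and is named after its values were seen, stood at 15.7 ± 5.68, 11.9 ± 3.47 and 306 ± 16.7 CPM in lymph node and at 16.5 ± 10.4, 22.3 ± 4.82 and 188 ± 29.6 in spleen. Its groups, like those of Tcf7, overlapped between the Id3+ populations and stood apart in Id3- eTR.

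Among 13 tested BACH2 partners and AP-1 proteins, 3 were called higher and 0 lower over both steps in spleen, and 3 higher and 1 lower in lymph node, with medians of 0.14 and 0.33. Batf, an AP-1 factor of effector TR, rose by 0.96 ± 0.11 in spleen (adjusted p = 1.11e-05) and by 1.06 ± 0.11 in lymph node (adjusted p = 2.81e-06). Mafg, a small MAF partner of BACH2, rose by 1.47 ± 0.41 (adjusted p = 0.024) and by 1.56 ± 0.40 (adjusted p = 0.015). Fosb, an AP-1 gene of early stimulation, rose by 0.99 ± 0.27 (adjusted p = 0.0209) and by 1.18 ± 0.27 (adjusted p = 0.00723). The gene called lower in lymph node, named after its values were seen, was Jun. Nfe2l2 was called lower in the first step of lymph node (-0.77 ± 0.19, adjusted p = 0.0223).

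Of 8 tested partners of SATB1 in chromatin, 0 were called higher and 2 lower over both steps in each tissue, with medians of -0.25 in spleen and 0.03 in lymph node. Kat2b, a histone acetyltransferase, fell by 1.03 ± 0.20 in spleen (adjusted p = 0.00218) and by 0.65 ± 0.20 in lymph node (adjusted p = 0.0389). The other was Chd4, of the NuRD complex, in spleen (-0.83 ± 0.19, adjusted p = 0.00679) and Hdac2, a histone deacetylase, in lymph node (-0.43 ± 0.14, adjusted p = 0.0474). None of the 8 was called in a single step (1 to 3 at an unadjusted p under 0.05).

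Quiescence regulators of T cells gave 0 higher and 4 lower of 12 tested over both steps in spleen, and 1 higher and 3 lower in lymph node, with medians of -0.19 and -0.08. Tsc22d3, a gene of glucocorticoid response, fell by 0.92 ± 0.14 in spleen (adjusted p = 0.000334) and by 0.86 ± 0.15 in lymph node (adjusted p = 0.000569). Klf3 fell by 0.71 ± 0.14 (adjusted p = 0.003) and by 0.88 ± 0.15 (adjusted p = 0.000474). Klf2 was the other gene called lower in both tissues, and Slfn2, named after its values were seen, was called lower in spleen. Klf4, in contrast, rose in lymph node by 2.15 ± 0.44 (adjusted p = 0.00282).

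Of 15 other lymphoid transcription factors tested, 3 were called higher and 2 lower over both steps in spleen and 4 higher and 0 lower in lymph node, with medians of -0.04 and 0.14. More genes were called higher than lower over all genes too (7.17% against 5.09% in spleen, 8.26% against 4.68% in lymph node). Ikzf2, which encodes HELIOS of TR, rose by 0.84 ± 0.14 in spleen (adjusted p = 0.000499) and by 0.98 ± 0.14 in lymph node (adjusted p = 9.97e-05). Tox rose by 0.93 ± 0.11 (adjusted p = 1.23e-05) and by 0.78 ± 0.10 (adjusted p = 5.92e-05), and Runx3 by 1.17 ± 0.33 (adjusted p = 0.0294) and by 1.62 ± 0.33 (adjusted p = 0.0032). Ikzf3, which encodes AIOLOS, rose in lymph node (1.45 ± 0.19, adjusted p = 4.64e-05), and in its second step (1.53 ± 0.19, adjusted p = 0.000149). The 2 called lower in spleen, named after their values were seen, were Ets1 and Ikzf1.

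**Figure D4:**
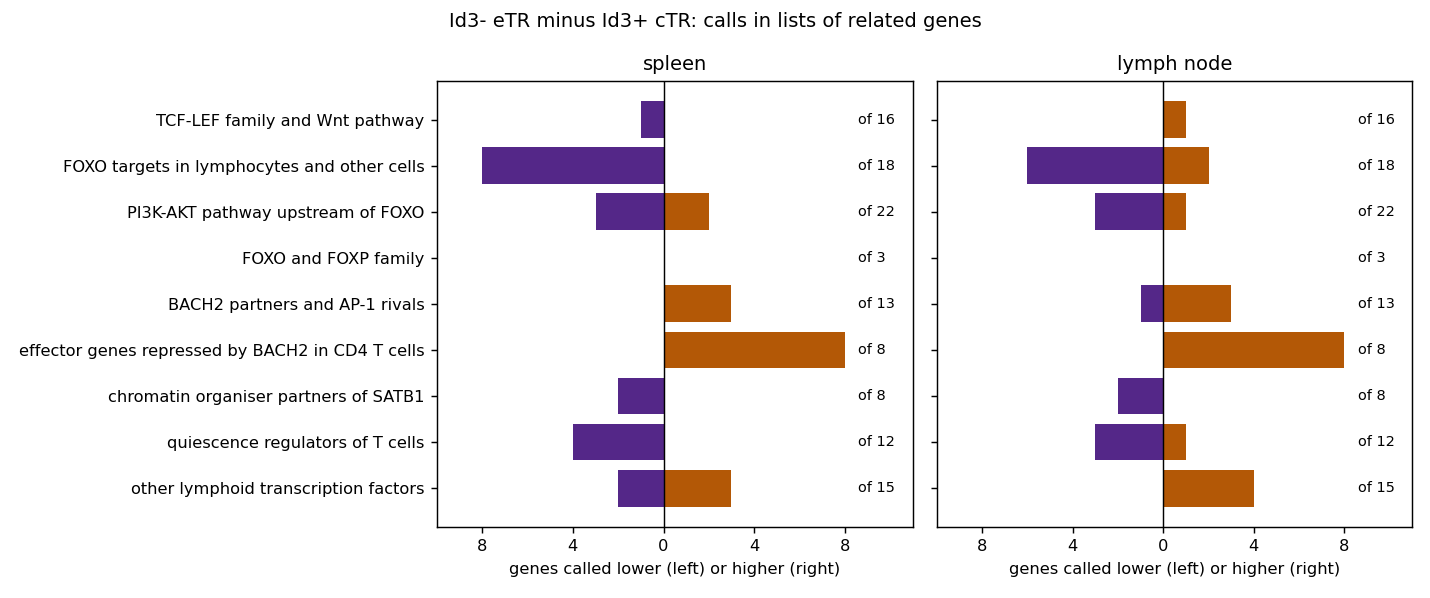
Number of genes called lower (purple, left of 0) and higher (orange, right of 0) in Id3- eTR against Id3+ cTR in 9 lists of related genes, in spleen and lymph node, with the number tested beside each bar. FOXO targets have 8 and 6 lower calls, and all 8 effector genes repressed by BACH2 are called higher in both tissues.

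Genes with profiles most like those of the members were found by the distance between the 6 group means of log2 CPM, each gene centred on its own mean, among 8936 genes of mean log2 CPM of at least 3. Nearest to Satb1 were Tubb2a, a beta tubulin (root mean square distance 0.17 on the log2 scale), and Nedd4l, a ubiquitin ligase (0.26). Nearest to Bach2 were Actn1, an alpha-actinin (0.15), and St8sia1, a sialyltransferase (0.23). Actn1 stood at 59.2, 22.1 and 5.50 CPM in the 3 lymph node populations, beside 222, 94.2 and 24.8 of Bach2. Nearest to Tcf7 were Pomt1, a mannosyltransferase (0.09), and Aff3, a transcription elongation factor (0.14), and Aff3 stood at 107, 104 and 34.0 CPM in spleen. Pomt1 was scarce and varied between libraries, at 15.7 ± 8.24, 13.4 ± 8.41 and 8.72 ± 7.95 CPM (SD) in spleen, so its likeness to Tcf7 is uncertain. Nearest to Lef1 were Relt (0.11) and Gpd2 (0.12), to Foxp1 Tdg (0.08) and Dnah8 (0.09), to Foxo1 Haus8 (0.05) and Sptan1 (0.05), and to Foxo3 Nfatc3 (0.07) and March6 (0.09). Distances of flat profiles such as that of Foxo3 are small for many genes, and the likeness is a description over 6 means.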

How the data were processed

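RNA-seq libraries were made from 500 sorted cells each with SMART-Seq v4 and a modified Nextera XT protocol, per the labels' protocols. Of 2 tables deposited by the authors, the first gives raw counts of each gene. The second, also deposited by the authors, gives normalized signal. For 13883 genes matched by symbol, 99.986% of its values lay within 0.1% of the raw count multiplied by a library's factor. Tools listed without a role in the submitters' processing notes are HTSeq 0.4.1, TopHat, Bowtie, SAMtools, Picard and FastQC. The sources used here give no genome build. The highest count of any gene was 4706. Removal of duplicate reads, which would lower the counts of abundant genes most, is neither stated nor denied in the labels.

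Counts were fitted with edgeR 4.0.16 in R 4.3.3 (filterByExpr with a minimum count of 10, TMM, robust quasi-likelihood F test, two-sided) as 1 model with 6 group means, 12 residual degrees of freedom and all 18 libraries. Adjustment was by Benjamini-Hochberg over 12445 genes. The biological coefficient of variation was 0.294. The SE is the log2 fold change over the square root of F, and log2 CPM has a prior count of 2. The pipeline was tested on simulated data. Symbols came from GENCODE M21 for 32919 identifiers. The other 5072 made up 0.891% of counts. Of 164 listed genes 2 were not found.

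The alternatives were RLE size factors, no filter, DESeq2 1.42.0, limma-voom (limma 3.58.1), limma-trend on log2 (value + 1) of the normalized table, mouse as a replicate block, only the compared groups, leaving out the 3 libraries that stand apart, and leaving out each library. The mouse numbers pair libraries, since the labels give all 6 libraries of a number as from the same mouse. Deviations from group means correlated at a mean r of 0.02 within mice (45 pairs, -0.031 to 0.08) and -0.01 between mice (90 pairs). Members and lists were chosen with earlier results of these data known. The rule named all members and their relatives. From each list it took up to 4 genes called in most of the 6 population comparisons. For each member it took the 2 genes nearest in profile. Results on a few listed genes are not reported here, and the counts of their lists include them.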

Additional observations from a re-analysis of the deposited data

How the results depend on the processing

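Of 1540 values of the 7 genes under alternatives, 30 lost a call and 13 gained one, and the others kept their side of the threshold. In all 57 uncalled values changed sign, 31 of them of Foxo3, and 5 of the 57 did so by more than 1 SE. No called value changed sign. Of the 7 genes, the whole difference called 6 in spleen and 5 in lymph node under every alternative, and the first step of lymph node 4. The first step in spleen called 4, and 2 with only the compared groups, where fewer samples entered (538 calls over all genes against 145). Leaving out single libraries gave 3 to 5. For this step no count is given without the 3 libraries that stand apart, which leaves only mouse 86 in spleen Id3+ cTR. The second step called 5 to 6 in spleen and 2 to 3 in lymph node when single libraries were left out. By DESeq2 the first step called 5 in spleen and 4 in lymph node, and the second 6 and 4. Over all genes DESeq2 called 1023 of 12339 and 993 of 13143 in the first step (538 and 705 by edgeR). In the second it called 735 and 554 of 13143 (408 and 326 by edgeR). For Id3+ eTR between tissues 1 gene was called, 2 by DESeq2, 0 with only the compared groups and 1 to 2 with single libraries left out. Over all genes edgeR called 36 of 12445 there and DESeq2 195 of 13143. For Id3- eTR between tissues 0 were called and 1 by DESeq2. For the interaction of the second step 0 were called, against 1 on the authors' normalized table, 2 by DESeq2, 1 with no filter and 0 to 1 with single libraries left out, and for that of the first step 0 against 1 by DESeq2. DESeq2 made more calls over all genes (1887 against 1526 in spleen over both steps).

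With mouse as a replicate block, which pairs the libraries of a mouse, 6 and 5 genes were called over both steps in spleen and lymph node, 4 and 4 in the first step, and 5 and 3 in the second. The block changed 2 calls, the second step of Foxo1 in spleen and the step difference of Tcf7 in spleen, and no other.

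Of the 7 genes, Foxo3 has the lowest counts, at 12 to 87 per library. The number of mice, 3, limits every comparison.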
